A study of Mus musculus with 15 samples.

Results

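The genes described here are Trp53, which encodes the transcription factor p53, and 9 genes that p53 is known to bind and activate: Mdm2, Ccng1, Sesn2, Trp53inp1, Bax, Bbc3, Eda2r, Phlda3 and Zmat3. These 10 genes, of 51826 in the expression tables, were chosen by symbol as Trp53, its regulator Mdm2 and known direct targets, with no threshold on a measured value. RNA-seq of whole mammary tissue was available from 13 mice in 15 libraries. Trim24COE mice carry an MMTV-Cre transgene and a transgene that expresses Flag-tagged mouse Trim24, a histone reader, once Cre has removed a stop cassette. They gave 3 carcinosarcomas (tumors 64, 567 and 897) and 3 carcinomas (tumors 89, 273_5 and 3956). The 4 control glands (133, 392, 417_3 and 517_3) were tumor-free mammary glands of mice with MMTV-Cre and no Trim24 transgene. The 3 non-TRIM24 tumors (219, FVB001 and FVB002) are labelled as carcinomas that arose spontaneously in mice of unknown genotype. Every sample carries the strain label FVB, the series description gives a mixed FVB and 129 background for the control glands, and the labels name no treatment, age or sex. MMTV-Cre acts in the mammary epithelium, so each library mixes cells with an active transgene and cells without one. In these bulk samples, fewer cells of a type and less RNA per cell cannot be told apart. The pathologists of the study gave differing calls for tumors 89, 567 and 3956, and the class used here is the one in the sample labels. The paper's tumor list also holds calls based on RNA-seq, with the label's class for tumors 64, 89, 567, 897 and 273_5. The classes may therefore rest partly on RNA profiles, and RNA differences between them may not be independent of how the classes were set. The sequencing ran in 2 batches. Batch 2 consists of the non-TRIM24 tumors and a second library each of control gland 133 and carcinoma 3956, and batch 1 of the libraries of all control glands and Trim24COE tumors.

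In unstressed cells p53 is made and destroyed at a high rate, because the ubiquitin ligase MDM2 binds it and marks it for degradation. When DNA damage or an oncogene blocks that degradation, p53 accumulates as protein, binds its recognition sequence and activates genes that stop the cell cycle, start apoptosis, restrain growth signalling and, through Mdm2 itself, shut the response down again. The level of Trp53 RNA is therefore only a partial readout of the pathway, and the RNA of the targets is the more direct one. In mammary epithelium the pathway is known as a barrier to tumor formation, and loss of its function is frequent in triple-negative and metaplastic breast cancer.

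Levels are in TPM, a length-corrected abundance that sums to 1000000 over the genes of a library. Such values do not carry the number of reads, so the depth is unknown and intervals for counting error were not computed. All 10 genes passed the filter on low levels in every comparison. The targeted gene, Trim24, lay between 10.6 and 24.1 TPM in the Trim24COE tumors and between 14.5 and 22.4 TPM in the control glands, and did not differ past the threshold (limma adjusted p = 0.557). Cell makeup differed between libraries of one group. The summed TPM of 10 adipocyte markers was 34516 and 46214 in control glands 133 and 392 but 1976 and 2153 in glands 417_3 and 517_3, and it was 66561 and 33044 in tumors FVB001 and FVB002 against at most 1786 in every other tumor. The summed TPM of 8 epithelial markers ran the other way in the glands, at 849 and 1429 in glands 133 and 392 and 5437 and 5772 in glands 417_3 and 517_3. It was 364 to 1423 in the carcinosarcomas and 2510 to 5975 in the carcinomas, with all 8 markers above 0 in each of these libraries.

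The recognition sequence of p53 is a pair of decamers, each 10 bases long, which may be separated by a spacer. Promoter windows from 250 bases before to 50 bases after the transcription start were available from RefSeq (GRCm38.p6) for 8 of the 10 genes, and Zmat3 and Trp53inp1 had none. The p53 consensus decamer reads the same on both strands. An exact match to it lay in 4 of the 10 windows of these 8 genes, whereas 8.36% of all 32851 windows hold one. The 4 windows are those of Trp53, Mdm2, Ccng1 and Bax. A full site was defined here as 2 decamers at most 13 bases apart with their central C and G kept and at most 2 mismatches in all. It lay in 2 of the 10 windows, those of Ccng1 and Bax, against 4.09% of all windows. The 4 stretches of 120 bases are shown because they carry these matches in genes that form the core of the results, with the decamer (Trp53 and Mdm2) or both decamers of the full site (Ccng1 and Bax) in capitals. They read 5′ to 3′ in the direction of the gene and come from chr11:69580234-69580353 on the plus strand (Trp53), and from chr10:117710875-117710994 (Mdm2), chr11:40755412-40755531 (Ccng1) and chr7:45467029-45467148 (Bax) on the minus strand.
Trp53: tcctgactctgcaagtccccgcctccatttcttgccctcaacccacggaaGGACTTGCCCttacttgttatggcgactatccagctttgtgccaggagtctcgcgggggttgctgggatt
Mdm2: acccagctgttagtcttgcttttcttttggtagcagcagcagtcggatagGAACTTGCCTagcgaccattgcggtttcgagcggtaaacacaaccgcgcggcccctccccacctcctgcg
Ccng1: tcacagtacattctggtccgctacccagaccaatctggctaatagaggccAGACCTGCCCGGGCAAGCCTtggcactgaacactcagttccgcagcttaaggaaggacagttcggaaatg
Bax: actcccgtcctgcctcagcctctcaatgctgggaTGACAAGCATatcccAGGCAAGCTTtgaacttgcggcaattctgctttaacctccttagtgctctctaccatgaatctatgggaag
The capitals begin at position -75 from the start site in Trp53, -186 in Mdm2, -195 in Ccng1 and -216 in Bax. A match is a description of these letters and was not tested as a binding site.

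Trp53 (ENSMUSG00000059552.13, chr11:69580359-69591873, plus strand; gene spans are GENCODE M21 on GRCm38) had 34.97, 32.8, 109 and 107 TPM in control glands 133, 392, 417_3 and 517_3. The carcinosarcomas 64, 567 and 897 had 26.5, 33.5 and 11.3 TPM, and the carcinomas 89, 273_5 and 3956 had 46.3, 91.0 and 109 TPM. The non-TRIM24 tumors had 79.2, 37.2 and 55.3 TPM. Every carcinosarcoma lay below every carcinoma, and the control glands split into a low and a high pair whose range held all carcinomas and all non-TRIM24 tumors. Carcinosarcoma 897 had the lowest Trp53 level of the 13 mice.

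Mdm2 (ENSMUSG00000020184.15, chr10:117688875-117710758, minus strand), the ligase and feedback target, had 23.5, 23.5, 51.8 and 39.2 TPM in the same order of control glands. It had 18.7, 23.01 and 28.3 TPM in the carcinosarcomas and 54.8, 61.9 and 136 TPM in the carcinomas, so that the carcinomas overlapped neither the carcinosarcomas nor the control glands. The non-TRIM24 tumors, at 30.5, 18.1 and 30.8 TPM, lay below every carcinoma, and FVB001 had the lowest level of the 13 mice.

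**Figure D1:**
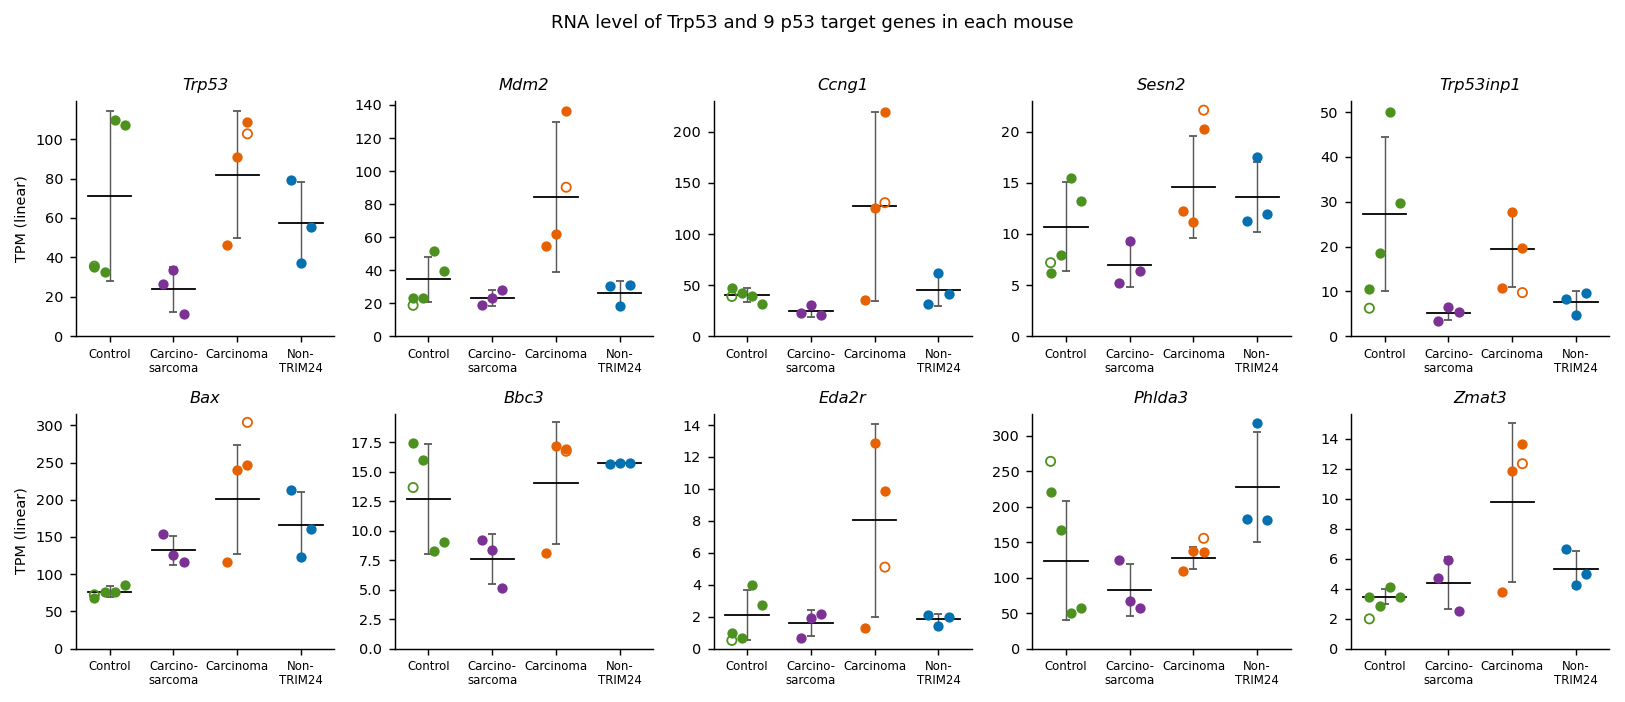
TPM (linear axis from 0) of the 10 genes in each mouse by group; filled points are first libraries, open circles the repeat libraries of control gland 133 and carcinoma 3956, black lines group means and grey bars 1 SD over mice. Bax is above all 4 control glands in all 6 Trim24COE tumors, and Trp53, Mdm2, Ccng1, Sesn2 and Trp53inp1 are lower in every carcinosarcoma than in every carcinoma.

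Ccng1 (ENSMUSG00000020326.7, chr11:40748552-40755311, minus strand) encodes cyclin G1, which acts with phosphatase 2A on MDM2. It had 47.1, 42.8, 39.2 and 31.2 TPM in the control glands and 22.4, 31.0 and 20.4 TPM in the carcinosarcomas, each of which lay below each control gland. The carcinomas had 35.5, 126 and 220 TPM in first libraries, so that tumor 3956 had 6.19 times the level of tumor 89. The repeat library of tumor 3956 had 131 TPM. The non-TRIM24 tumors had 31.6, 62.3 and 41.6 TPM. Carcinoma 89 was within the range of the control glands and carcinomas 273_5 and 3956 were above it.

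Sesn2 (ENSMUSG00000028893.8, chr4:132492032-132510501, minus strand) encodes sestrin 2, a stress protein that inhibits mTORC1. Its level was 6.20, 7.90, 15.4 and 13.2 TPM in the control glands, 5.17, 9.29 and 6.39 TPM in the carcinosarcomas, 12.3, 11.1 and 20.3 TPM in the carcinomas and 11.3, 17.6 and 11.98 TPM in the non-TRIM24 tumors. The carcinosarcomas lay below the carcinomas and within or below the range of the control glands. The annotation places Gm12981 on the same strand within the span of Sesn2, so reads of the pair could not be told apart with certainty.

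Trp53inp1 (ENSMUSG00000028211.11, chr4:11156431-11174379, plus strand) encodes a stress-induced nuclear protein that promotes autophagy and cell death. It had 10.5, 18.6, 50.1 and 29.6 TPM in the control glands and 3.46, 6.46 and 5.45 TPM in the carcinosarcomas. The carcinomas had 10.8, 27.7 and 19.7 TPM and the non-TRIM24 tumors 8.35, 4.76 and 9.63 TPM. In first libraries, every carcinosarcoma and every non-TRIM24 tumor lay below every control gland and every carcinoma. The non-TRIM24 tumors are in batch 2, where the repeat library of gland 133 had 6.26 TPM.

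Bax (ENSMUSG00000003873.11, chr7:45461697-45466898, minus strand) encodes the pore-forming protein that permeabilizes mitochondria in apoptosis. Its level was 67.8, 75.4, 76.1 and 85.6 TPM in the control glands, a mean of 76.2 TPM with an SD of 7.29 (n = 4), the smallest SD relative to the mean of the 10 genes in these glands. It had 153, 126 and 116 TPM in the carcinosarcomas, 116, 240 and 247 TPM in the carcinomas and 213, 123 and 161 TPM in the non-TRIM24 tumors. All tumors lay above all control glands. Gm45808 is annotated on the same strand over part of Bax, with the same uncertainty as for Sesn2.

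Bbc3 (ENSMUSG00000002083.13, chr7:16308393-16318205, plus strand), which encodes the BH3-only protein PUMA, had 17.5, 16.0, 8.25 and 9.07 TPM in the control glands. The carcinosarcomas had 9.20, 8.37 and 5.17 TPM and the carcinomas 8.09, 17.2 and 16.9 TPM. The non-TRIM24 tumors were nearly equal, at 15.7, 15.8 and 15.8 TPM. In the glands the order was the opposite of that of Trp53, with the higher Bbc3 levels in glands 133 and 392, and the groups overlapped.

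Eda2r (ENSMUSG00000034457.10, chrX:97333840-97377216, minus strand), a receptor of the TNF receptor family, was the least abundant of the 10 genes. It had 0.97, 0.69, 4.00 and 2.74 TPM in the control glands, 0.64, 1.93 and 2.16 TPM in the carcinosarcomas and 1.29, 12.9 and 9.88 TPM in the carcinomas. The non-TRIM24 tumors had 2.08, 1.43 and 1.99 TPM. Only carcinomas 273_5 and 3956, of the 13 mice, were above the highest control gland.

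Phlda3 (ENSMUSG00000041801.5, chr1:135766119-135769136, plus strand) encodes a PH-domain protein that competes with AKT for membrane lipids. Its level was 220, 167, 50.4 and 56.9 TPM in the control glands, 124.8, 67.1 and 56.7 TPM in the carcinosarcomas, 110, 138 and 136 TPM in the carcinomas and 183, 317 and 182 TPM in the non-TRIM24 tumors. As with Bbc3, glands 133 and 392 were high and glands 417_3 and 517_3 low.

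Zmat3 (ENSMUSG00000027663.12, chr3:32334792-32366014, minus strand), which encodes an RNA-binding zinc finger protein, had 3.44, 2.87, 4.09 and 3.42 TPM in the control glands and 4.68, 5.89 and 2.49 TPM in the carcinosarcomas. The carcinomas had 3.74, 11.9 and 13.6 TPM and the non-TRIM24 tumors 6.66, 4.23 and 4.96 TPM. Carcinoma 89 lay among the control glands, and the other two carcinomas were the highest of the 13 mice.

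Whether the p53 program differed between the tumor classes was asked first. All 10 genes had a lower mean log2 level in the carcinosarcomas than in the carcinomas, as did 57.3% of all genes tested, but none passed the limma test after adjustment over 14193 genes, of which 99 (0.698%) passed. The differences ranged from -2.0 on the log2(TPM + 1) scale for Ccng1 to -0.53 for Bax, with a median of -1.23 for the 10 genes and -0.10 for all genes tested. Trp53, Mdm2, Ccng1, Sesn2 and Trp53inp1 did not overlap between the classes, 5 of 10 genes, where 14.4% of all genes were lower in every carcinosarcoma than in every carcinoma. The same 5 genes had an unadjusted limma p under 0.05, against 9.87% of all genes in that direction. The smallest adjusted p-value was that of Mdm2, with a log2 difference of -1.71 (SE 0.39, limma adjusted p = 0.146, n = 3 and 3). Trp53inp1 had a difference of -1.68 (SE 0.40, limma adjusted p = 0.161) and Trp53 one of -1.78 (SE 0.48, limma adjusted p = 0.199). Ccng1, with the largest difference, had the largest error of these (SE 0.63, limma adjusted p = 0.231). In exact two-sided permutation tests these 5 genes reached p = 0.1, the smallest that 3 against 3 allows. The epithelial marker sum differed between the same libraries, 364 to 1423 TPM against 2510 to 5975 TPM. So did the fibroblast marker sum, 1218 to 2957 TPM in the carcinosarcomas against 107 to 1135 TPM in the carcinomas. The macrophage sums (975 to 1835 and 591 to 1368 TPM) and the adipocyte sums (201 to 324 and 190 to 1786 TPM) overlapped. The part of these cell types in the differences was not tested.

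**Figure D2:**
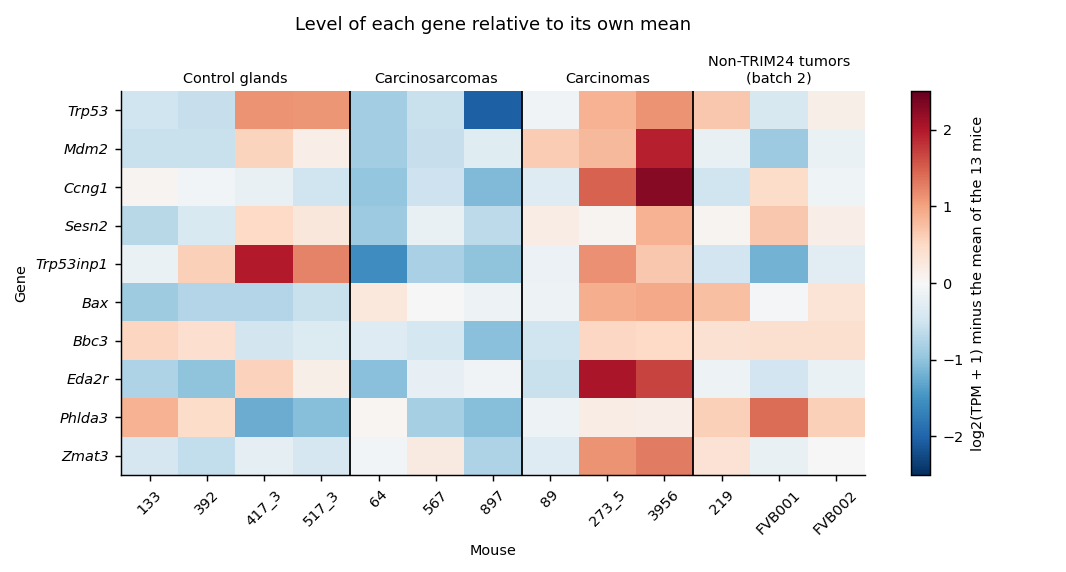
Level of each gene (rows) in the first library of each of the 13 mice (columns), as log2(TPM + 1) minus the gene's mean over the mice, with black lines between groups. The carcinosarcoma columns are blue for Trp53, Mdm2, Ccng1 and Trp53inp1, the darkest red cells of Ccng1, Mdm2 and Eda2r lie in carcinomas 273_5 and 3956, and the control glands differ in pairs.

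Against the control glands, the carcinosarcomas had higher Bax and lower Trp53inp1. These were 2 of the 10 genes, where 23.0% of the 15287 genes tested passed. Bax was 1.72-fold higher (log2 difference 0.78, SE 0.21, limma adjusted p = 0.0339; higher in 3 of 3 tumors than in every gland). Trp53inp1 had a log2 difference of -2.03 (SE 0.50, limma adjusted p = 0.0244), a 4.08-fold lower level. In first libraries it was lower in 3 of 3 tumors than in every gland, though the repeat library of gland 133 (6.26 TPM) lay below tumor 567 (6.46 TPM). Ccng1 did not overlap either, with a log2 difference of -0.69 (SE 0.26, limma adjusted p = 0.0877). Its groups nearly met, at 31.04 TPM in tumor 567 and 31.24 TPM in gland 517_3. The first and repeat libraries of gland 133 lay farther apart than that, at 47.1 and 38.95 TPM. For each of these 3 genes the exact two-sided permutation p was 0.0571, the smallest that 3 against 4 allows. Non-overlapping levels were found in 37.0% of all genes. Trp53 had a log2 difference of -1.44 (SE 0.57, limma adjusted p = 0.101) and overlapped with the glands through tumor 567, which lay above gland 392. The Bax call was lost whichever of the 7 mice was left out (limma adjusted p 0.0572 to 0.152), and that of Trp53inp1 without gland 517_3 or any 1 of the carcinosarcomas (limma adjusted p 0.0572 to 0.105). Markers of several cell types moved in the same comparison. Of the epithelial markers 5 of 8 were lower (sums of 849 to 5772 TPM in the glands and 364 to 1423 TPM in the carcinosarcomas), as were 3 of 10 adipocyte markers (1976 to 46214 TPM and 201 to 324 TPM). Of the macrophage markers 4 of 6 were higher (136 to 462 TPM and 975 to 1835 TPM), as were 2 of 4 fibroblast markers (450 to 1073 TPM and 1218 to 2957 TPM) and 6 of 10 proliferation genes (29.1 to 182 TPM and 376 to 434 TPM). No marker of these lists was at 0 in any of the 7 libraries, and their part in the Bax and Trp53inp1 differences was not tested.

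The control glands fell into an adipocyte-rich and an epithelium-rich pair, and the same pairs differed in Trp53 (34.97 and 32.8 against 109 and 107 TPM) and in Mdm2 (23.5 and 23.5 against 51.8 and 39.2 TPM). How far the carcinosarcomas lay from the glands in these genes therefore followed from which pair they were set against, and the values are given as differences with no test. From the epithelium-rich glands 417_3 and 517_3 the log2 difference was -2.27 for Trp53, -0.94 for Mdm2, -2.72 for Trp53inp1 and 0.69 for Bax. From the adipocyte-rich glands 133 and 392 it was -0.62 for Trp53, -0.03 for Mdm2, -1.33 for Trp53inp1 and 0.87 for Bax. A fit with an adipocyte marker mean as a covariate rests on the same division of the glands. In it Trp53 (-2.64, limma adjusted p = 0.00976), Mdm2 (-1.16, limma adjusted p = 0.0312) and Trp53inp1 (-3.01, limma adjusted p = 0.00447) passed, 3 of the 10 genes against 31.7% of all genes, and Bax missed the threshold (0.63, limma adjusted p = 0.101).

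None of the 10 genes passed between the carcinomas and the control glands, where 542 of 15479 genes (3.5%) passed. At an unadjusted limma p under 0.05 there were 4 (Bax, Mdm2, Zmat3 and Ccng1), against 21.5% of all genes. The fitted log2 difference was above 0 for 9 of the 10 genes, as for 51.1% of all genes, and only Trp53inp1 was below 0 (-0.35, SE 0.54). The median was 0.78, and 0.02 over all genes tested. Bax and Mdm2 were higher in every carcinoma than in every gland, as were 10.7% of all genes. Bax had a log2 difference of 1.31 (SE 0.31, limma adjusted p = 0.0618) and Mdm2 one of 1.22 (SE 0.42, limma adjusted p = 0.149), each with an exact permutation p of 0.0571, the smallest possible. Ccng1 had a difference of 1.31 (SE 0.56), Eda2r of 1.32 (SE 0.69) and Zmat3 of 1.12 (SE 0.43), and in all 3 genes carcinoma 89 lay within the range of the glands. Trp53 itself differed by 0.34 (SE 0.54, limma adjusted p = 0.782). These values depended on single tumors: without carcinoma 89, Bax (1.67, limma adjusted p = 0.0387) and Ccng1 (2.04, limma adjusted p = 0.0425) passed, whereas without carcinoma 3956 Bax was at 1.12 (limma adjusted p = 0.189) and Ccng1 at 0.74 (limma adjusted p = 0.534). Both comparisons with the control glands use the same 4 glands, so their values are given side by side only.

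**Figure D3:**
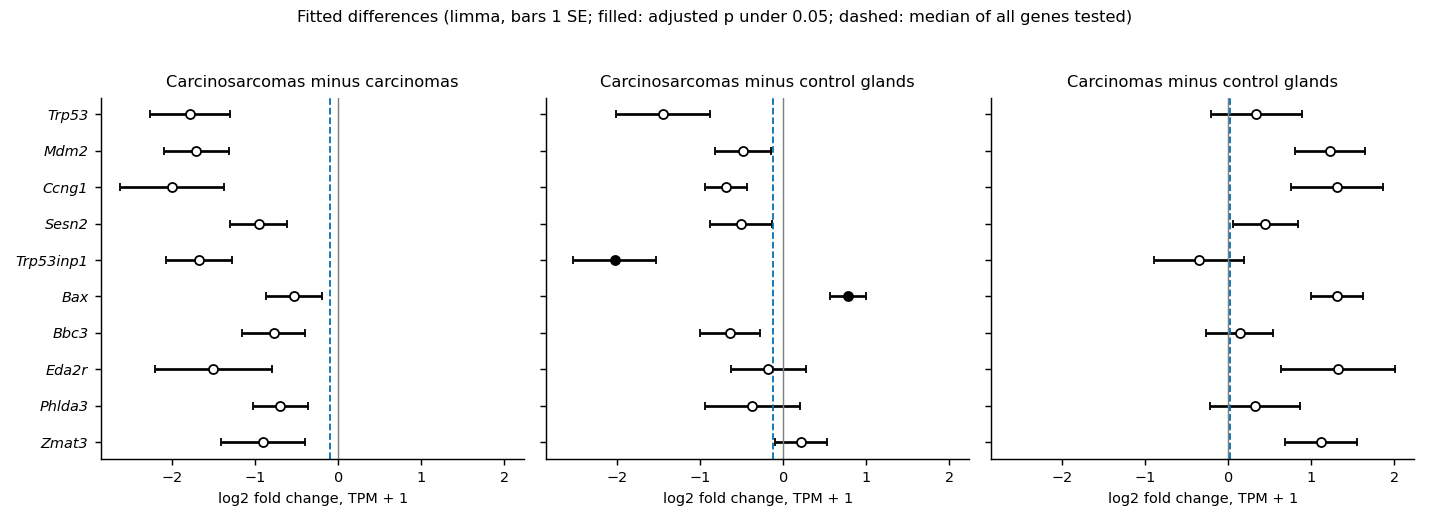
Fitted log2 fold changes of TPM + 1 (horizontal axis) for the 10 genes in 3 comparisons, with bars of 1 standard error; filled points have a limma adjusted p under 0.05 and the dashed line is the median of all genes tested. All 10 points lie below 0 between carcinosarcomas and carcinomas, none of them filled, and only Bax and Trp53inp1 are filled, between carcinosarcomas and control glands.

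With both tumor classes pooled, Bax alone of the 10 genes passed in the comparison of all 6 Trim24COE tumors with the glands, where 17.1% of 15196 genes passed. It was 2.06-fold higher, with a log2 difference of 1.05 (SE 0.26, limma adjusted p = 0.0210), and higher in 6 of 6 tumors than in every gland (exact permutation p = 0.00952, the smallest possible), as were 7.39% of all genes. The call was lost without gland 133 (limma adjusted p = 0.0541), with the adipocyte covariate (0.134), and with either pair of glands alone (0.0909 without glands 133 and 392, 0.0518 without the other two), at log2 differences of 0.93 to 1.13. The other 9 genes had adjusted p-values of 0.171 or more. The difference was above 0 for 5 of the 10 genes, as for 47.9% of all genes, and changed sign under TMM scaling for Sesn2 and Phlda3. Proliferation genes moved with this comparison, 7 of 10 being higher (Plk1 by 2.49, Cdk1 by 2.94 and Ccnb1 by 2.52 on the log2 scale among them), with a sum of 29.1 to 182 TPM in the glands and 247 to 434 TPM in the tumors. So did macrophage markers, 5 of 6 being higher, with a sum of 136 to 462 TPM in the glands and 591 to 1835 TPM in the tumors, and none of them at 0 in any library. Of the fibroblast markers 1 of 4 was higher. Markers that were lower were 3 of 3 for B cells, 3 of 4 for endothelium, 3 of 10 for adipocytes, 1 of 4 for T cells and 1 of 2 tested for lymph node stroma. None of the 8 epithelial markers passed. The part of these lists in the Bax difference was not tested.

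The non-TRIM24 tumors are all in batch 2, so batch was a term in the fit of all 15 libraries that compared them. Only gland 133 and carcinoma 3956 tie the batches together in it. The fit did not link the libraries of a mouse, so its standard errors treat the repeats as separate mice. Its batch term also takes in how these mice differ from the rest of their own groups. None of the 10 genes passed against the control glands (18 of 16775 genes, 0.107%, passed and 1 of the 10 against 10.7% of all genes had an unadjusted p under 0.05) or between the carcinomas and the non-TRIM24 tumors (3 genes, 0.0179%, passed and 2 of the 10 against 17.7% of all genes had an unadjusted p under 0.05). Bax had the smallest adjusted p-value against the glands, at a log2 difference of 0.86 (SE 0.37, limma adjusted p = 0.440), which was 0.35 without gland 133. In TPM not adjusted for batch, Mdm2 and Trp53inp1 were higher in each carcinoma than in each non-TRIM24 tumor, and Phlda3 was lower. These values mix batch with group, and the share of all genes separated in this way was not counted, so no result is drawn from them. The fitted difference was 1.39 for Mdm2 (SE 0.49, limma adjusted p = 0.201), 0.02 for Trp53inp1 and -0.08 for Phlda3. Ccng1 differed by 1.41 (SE 0.60, limma adjusted p = 0.252). Without carcinoma 3956 the difference was 0.38 for Mdm2 and 0.59 for Ccng1. Batch and group could be separated only through the repeats, and these differed for some of the genes. In carcinoma 3956 the repeat library was lower by more than 0.5 on the log2 scale for Trp53inp1 (9.74 against 19.7 TPM), Eda2r (5.10 against 9.88 TPM), Ccng1 (131 against 220 TPM) and Mdm2 (90.2 against 136 TPM). In gland 133 it was lower by more than 0.5 for Trp53inp1 (6.26 against 10.5 TPM) and Zmat3 (1.98 against 3.44 TPM). Trp53 was close between the libraries of both mice, at 103 against 109 TPM in carcinoma 3956 and 35.6 against 34.97 TPM in gland 133. Within batch 2 alone, where gland 133 and carcinoma 3956 have 1 library each and no test is possible, the mean of the non-TRIM24 tumors was higher than gland 133 by 1.15 for Bax and 0.61 for Trp53 on the log2 scale, and carcinoma 3956 was higher than that mean by 1.77 for Mdm2 and 1.57 for Ccng1.

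The 10 genes varied unequally among the 6 Trim24COE tumors. The standard deviation on the log2 scale was 1.39 for Ccng1, 1.26 for Eda2r, 1.17 for Trp53, 1.05 for Mdm2 and 1.03 for Trp53inp1, and between 0.50 and 0.81 for the others, against a median of 0.48 over 14193 genes. The order of the tumors by Ccng1 was the same as by Trp53: carcinomas 3956, 273_5 and 89, then carcinosarcomas 567, 64 and 897. None of the other targets had this order, and for Bax carcinoma 89 was the lowest of the 6 tumors. The classes did not overlap in Trp53 and each has 3 tumors, so no correlation between Trp53 and its targets over these 6 tumors is given. Between tumors and glands of equal Trp53 level the targets differed in size. Carcinoma 3956 and gland 417_3 both had 109 TPM of Trp53, while Ccng1 was 220 and 39.2 TPM, Bax 247 and 76.1 TPM, and Mdm2 136 and 51.8 TPM. Trp53inp1 was the reverse, at 19.7 TPM in carcinoma 3956 and 50.1 TPM in gland 417_3. These pairs of samples were picked after their values were seen.

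**Figure D4:**
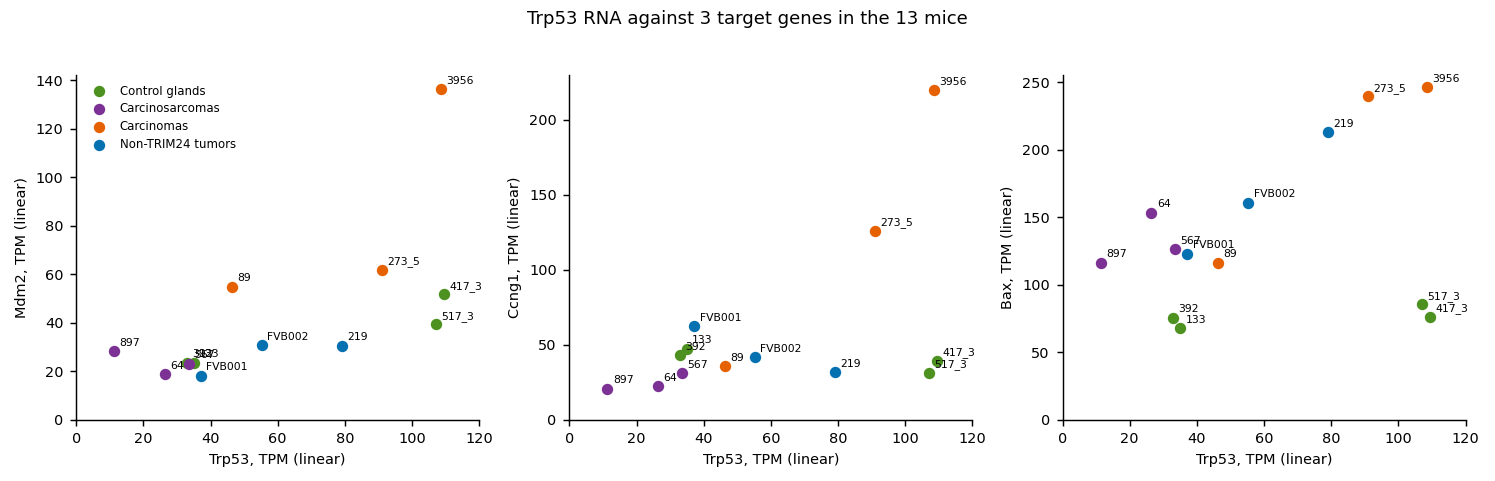
TPM of Mdm2, Ccng1 and Bax (vertical axes, linear from 0) against TPM of Trp53 (horizontal axis, linear) in the first library of each of the 13 mice, coloured by group and labelled by mouse. Control glands 417_3 and 517_3 have a Trp53 level like that of carcinoma 3956 but 39.2 and 31.2 TPM of Ccng1 against 220 TPM.

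The regulators of p53 were looked at next, in a list of 15 genes. Cdkn2a, whose ARF product inhibits MDM2 and whose p16 product inhibits CDK4 and CDK6, was higher in both tumor classes, and the gene-level values do not separate the products. It had 2.49, 16.5, 3.0 and 3.41 TPM in the control glands, 780, 887 and 1074 TPM in the carcinosarcomas, 138, 154 and 90.2 TPM in the carcinomas and 65.6, 10.01 and 33.8 TPM in the non-TRIM24 tumors. No Trim24COE tumor overlapped a control gland, and the classes did not overlap. The log2 difference from the glands was 7.30 in the carcinosarcomas (SE 0.54, limma adjusted p = 0.000538) and 4.45 in the carcinomas (SE 0.57, limma adjusted p = 0.0149), both of which passed in every fit that left out 1 mouse. Between the classes Cdkn2a differed by 2.85 (SE 0.28, limma adjusted p = 0.0130), a call that was lost without carcinosarcoma 64, carcinosarcoma 897 or carcinoma 89 (adjusted p up to 0.107).

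Mdm4, the partner of Mdm2 that holds p53 inactive, had 30.9, 28.9, 52.8 and 21.5 TPM in the control glands. It had 8.69, 6.92 and 10.7 TPM in the carcinosarcomas, 31.0, 30.7 and 25.2 TPM in the carcinomas and 11.3, 12.3 and 23.3 TPM in the non-TRIM24 tumors. The carcinosarcomas were the lowest of the 13 mice. Their log2 difference from the glands was -1.76 (SE 0.34, limma adjusted p = 0.00996) and passed without any 1 mouse, and that from the carcinomas was -1.63 (SE 0.26, limma adjusted p = 0.0574). Aurka, a mitotic kinase that phosphorylates p53, was higher in the tumors than in the glands (log2 difference 2.29, SE 0.35, limma adjusted p = 0.00202), though its call in the carcinomas alone (1.97, limma adjusted p = 0.0460) was lost whichever mouse was left out. Among the 15 regulators, 2 were higher and none lower in the pooled tumors, 2 were higher and 1 lower in the carcinosarcomas and 2 were higher in the carcinomas, all against the glands, where 17.1%, 23.0% and 3.5% of all genes passed. Cdkn2a and Aurka were the higher ones each time and Mdm4 the lower one. The median log2 difference of the list was -0.14, -0.31 and 0.04 in these comparisons, and that of all genes tested -0.04, -0.12 and 0.02. Between the tumor classes Cdkn2a alone of the 15 passed.

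**Figure D5:**
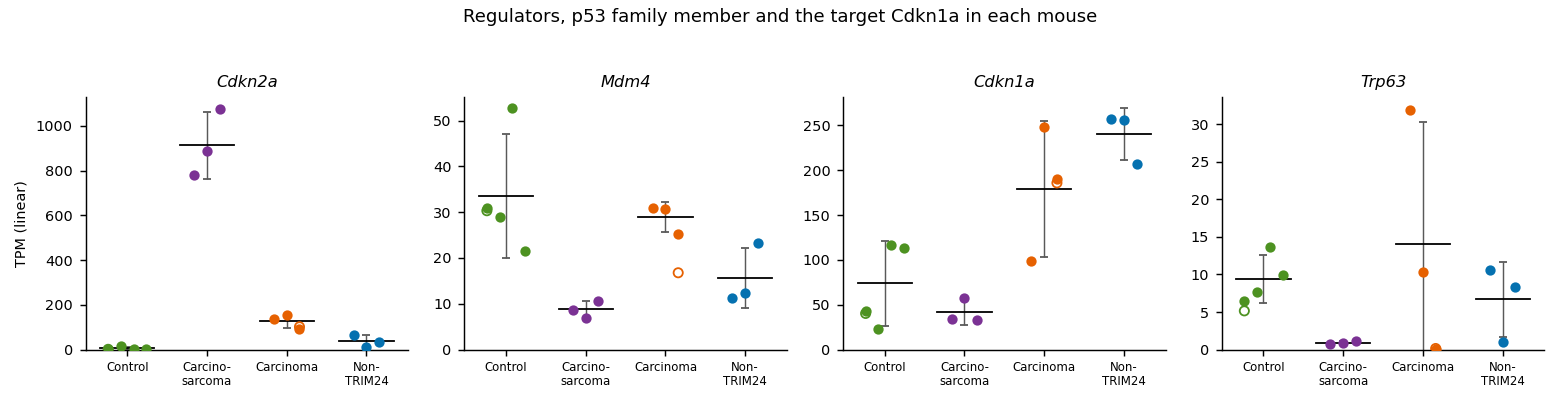
TPM (linear axes from 0) of Cdkn2a, Mdm4, Cdkn1a and Trp63 in each mouse by group; filled points are first libraries, open circles repeat libraries, black lines group means and grey bars 1 SD over mice, drawn down to 0 at most. Cdkn2a is highest and Mdm4 lowest in the 3 carcinosarcomas, and Trp63 ranges from 0.06 to 31.9 TPM among the carcinomas.

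Of the p53 family, Trp63, a marker of basal epithelium, had 0.74, 0.83 and 1.19 TPM in the carcinosarcomas and 6.49, 7.60, 13.7 and 9.99 TPM in the glands. It was lower by a log2 difference of -2.40 (SE 0.31, limma adjusted p = 0.00240), and 5 of 8 epithelial markers were lower in the same comparison, whose part in it was not tested. The carcinomas had 31.9, 10.3 and 0.06 TPM of Trp63. Trp73 did not reach the minimum level for a test.

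Further targets of p53 were taken as 33 genes in 3 lists, for arrest, for apoptosis, and for repair and metabolism, of which 32 were tested against the glands. Cdkn1a, which encodes the cyclin-dependent kinase inhibitor p21 and is the best known target, did not pass in any comparison. It had 42.9, 22.9, 116 and 113 TPM in the glands, 34.2, 57.3 and 32.8 TPM in the carcinosarcomas, 98.8, 249 and 190 TPM in the carcinomas and 258, 256 and 207 TPM in the non-TRIM24 tumors. The carcinosarcomas were lower than every carcinoma (log2 difference -2.03, SE 0.40, limma adjusted p = 0.109) and overlapped the glands. The glands again formed pairs, low in 133 and 392 and high in 417_3 and 517_3, as for Trp53.

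In the carcinosarcomas against the glands, 8 of the 32 further targets passed, a share near the 23.0% of all genes. They were 1 higher and none lower of the arrest genes, none higher and 1 lower of the apoptosis genes, and 1 higher and 5 lower of the repair and metabolism genes. Gtse1, which encodes a mitotic protein that restrains p53, was higher by 1.57 (SE 0.45, limma adjusted p = 0.0386). Fas, the death receptor, was lower by a log2 difference of -0.98 (SE 0.26, limma adjusted p = 0.0315). Ddb2, a sensor of damaged DNA, was lower by -2.13 (SE 0.34, limma adjusted p = 0.00487) and Ephx1, an epoxide hydrolase, by -2.08 (SE 0.45, limma adjusted p = 0.0157). Ak1, an adenylate kinase, was higher by 2.51 (SE 0.36, limma adjusted p = 0.00354). Xpc, of nucleotide excision repair, was lower by -0.92 (SE 0.25, limma adjusted p = 0.0334). Of 7 fits that each omitted 1 mouse, Ddb2 and Ak1 passed in all, Ephx1 in 5, Gtse1 in 2, and Fas and Xpc in 1. Gls2 (-1.10) and Rrm2b (-1.01) were the remaining lower genes, and passed in 1 of 4 and 0 of 7 such fits. Gls2 met the filter on low levels through control glands only, and so could be tested in only 4 of the fits. Being kept through the group where it is high, it adds no support to the count of lower targets. The medians of the arrest, apoptosis, and repair and metabolism lists were -0.56, -0.23 and -0.67, and -0.12 over all genes tested. In the carcinomas against the glands and between the classes none of the 32 passed, with medians of 0.81, 0.56 and -0.07 against the glands and -0.81, -0.59 and -0.47 between the classes. In the pooled tumors Gtse1 (1.94) and Ak1 (1.99) were higher and Fas (-1.19) and Ddb2 (-1.68) lower, 4 of the 32, a share below the 17.1% of all genes. Of 10 fits that each omitted 1 mouse, Fas was lost without gland 392 or 517_3 (limma adjusted p up to 0.0611) and Ddb2 without gland 417_3 or 517_3 (limma adjusted p up to 0.0512).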

How the data were processed

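RNA-seq libraries of mammary tissue from 13 mice were analysed (15 libraries, 2 of them repeats). The deposited values are TPM, which the authors made by trimming reads, aligning them to GRCm38 with GENCODE M14 using STAR and estimating abundance with RSEM. The submitters' processing notes also list FastQC, TopHat, Cufflinks, DESeq, edgeR and mm10, and the labels and the paper's methods name different extraction and library kits. TPM carry no depth, so no count model was used.

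Levels were analysed as log2(TPM + 1) with limma 3.58.1 in R 4.3.3 (variance trend, two-sided, Benjamini-Hochberg adjustment over all genes tested, threshold 0.05), for genes that reached 1 TPM in at least n libraries, n being the number of mice in the smaller group. The added 1 TPM understates changes of low genes. Control glands and Trim24COE tumors were compared in batch 1 libraries, each fit holding only its own groups. For the non-TRIM24 tumors, a batch term was fitted over all 15 libraries, repeats included and not linked by mouse. Each sample is a separate mouse other than the repeats. Correlations with Trp53 across the Trim24COE tumors were computed and are not reported, because the classes form separate clusters. Exact permutation tests used scipy 1.17.1 in Python 3.11.15. Groups came from the labels. The fits were tested on simulated data.

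The genes and lists were chosen with earlier results of these data known, and the lists were written from general knowledge. Named genes are the 10 members, up to 3 genes per list and direction with the smallest adjusted p among those past the threshold, Cdkn1a, Mdm4, Cdkn2a and Trim24, and the 3 genes most like Trp53 and Mdm2. Gls2 and Rrm2b fall outside this rule and were named after their values were seen. Gene spans come from GENCODE M21 (GRCm38) and promoters from RefSeq. Alternatives changed the pseudocount and the filter (0.1 TPM each), scaling, variance trend, samples in the fit, use of repeats, batch term, an adipocyte covariate and each mouse in turn.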

Additional observations from a re-analysis of the deposited data

How the results depend on the processing

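No paired analysis was possible because the mouse numbers differ between the groups and no sample of one group comes from a mouse of another. Depth is unknown, so the precision of low values such as those of Eda2r cannot be given. With 3 mice in a class, exact tests could not pass 0.05 in any comparison of a single class. Over 60 fold changes of the 10 genes, 907 of 1020 alternative values kept their direction and side of the threshold, 20 lost a call, 13 gained one and 80 changed sign, of which none passed the threshold. All 10 differences between carcinosarcomas and carcinomas stayed below 0 in every alternative run. TMM scaling moved the median of all genes from -0.10 to 0.01 between the tumor classes, from -0.12 to -0.01 for the carcinosarcomas against the glands, from -0.21 to 0.00 for the non-TRIM24 tumors against the glands and from 0.21 to -0.02 for the carcinomas against the non-TRIM24 tumors. Quantile normalization changed the split of genes higher and lower in carcinosarcomas than in glands from 1503 and 2008 to 1868 and 1459. The cause of these changes and of those that follow was not tested.

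Of the 10 genes, Bax alone had passed in the pooled Trim24COE tumors, and 0 passed with the adipocyte covariate or with either pair of glands left out, and 0 to 1 with 1 mouse left out. In the carcinosarcomas against the glands 2 had passed (Bax and Trp53inp1), 0 passed with no filter, 1 with quantile normalization and with all 10 mice of batch 1 in the fit, 4 without glands 133 and 392 (37.6% of all genes), 5 without glands 417_3 and 517_3 (31.9% of all genes), and 0 to 1 with 1 mouse left out. The fits without a pair of glands were chosen after these values had been seen, and the pairs differ in Trp53 and Mdm2 themselves, so the calls in them support nothing. In the carcinomas against the glands 0 had passed, 1 passed with all 10 mice of batch 1 (Bax) and without glands 133 and 392 (Phlda3, at 1.23), and 0 to 2 with 1 mouse left out. Without a batch term, 1 passed against the glands in the non-TRIM24 tumors (Bax) and 1 between carcinomas and non-TRIM24 tumors (Mdm2).

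Of all genes, 2597 had passed in the pooled tumors and 1156 did with the adipocyte covariate. Between the tumor classes 99 had passed, 0 did with no filter and 0 to 293 with 1 mouse left out, the most without carcinoma 3956. In the carcinosarcomas against the glands 3511 had passed, 1623 did with no filter, 5837 without glands 133 and 392 and 1345 to 3093 with 1 mouse left out. In the carcinomas against the glands 542 had passed, 321 did with the filter at 0.1 TPM, 46 with no filter, 1239 with all 10 mice of batch 1, 1224 and 1255 without the pairs of glands and 72 to 526 with 1 mouse left out. In the non-TRIM24 tumors against the glands 18 had passed, 5 did with a pseudocount of 0.1 TPM, 1862 with no batch term, 119 with the libraries of a mouse linked by duplicateCorrelation, 303 with batch 2 shifted by the repeated mice and 7 to 95 with 1 mouse left out. Between carcinomas and non-TRIM24 tumors 3 had passed, 13 did with the filter at 0.1 TPM, 8 with no filter, 5 with TMM, 6 with quantile normalization, 2166 with no batch term, 5 with linked libraries, 12 with batch 2 shifted and 0 to 230 with 1 mouse left out.

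Log2 differences that changed sign, none of them past the threshold, were as follows. In the pooled tumors they were Sesn2 (0.015) and Phlda3 (0.021) with TMM, Sesn2 (0.13) with quantile normalization, Bbc3 (0.23) and Phlda3 (0.95) with the adipocyte covariate, Mdm2 (-0.087), Bbc3 (0.19), Eda2r (-0.053) and Phlda3 (0.88) without glands 133 and 392, and Trp53 (0.27) and Sesn2 (0.43) without glands 417_3 and 517_3. With 1 mouse left out Ccng1 ranged from -0.12 to 0.56, Sesn2 from -0.24 to 0.16 and Phlda3 from -0.36 to 0.34. In the carcinosarcomas against the glands they were Eda2r (0.34) with quantile normalization, Bbc3 (0.032) and Phlda3 (0.94) with the covariate, Phlda3 (0.54) without glands 133 and 392, and Eda2r (0.44) without glands 417_3 and 517_3, and Eda2r ranged from -0.43 to 0.12 with 1 mouse left out. In the carcinomas against the glands they were Trp53 (-0.53) and Sesn2 (-0.040) with the covariate, Trp53 (-0.48) and Sesn2 (-0.020) without glands 133 and 392, and Bbc3 (-0.30), Trp53inp1 (0.35) and Phlda3 (-0.59) without glands 417_3 and 517_3. With 1 mouse left out Bbc3 ranged from -0.034 to 0.47, Trp53inp1 from -0.71 to 0.0058 and Phlda3 from -0.011 to 0.69.

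In the non-TRIM24 tumors against the glands they were Ccng1 (0.26) and Trp53inp1 (0.079) with TMM, Ccng1 (0.036) and Trp53inp1 (0.062) with quantile normalization, Mdm2 (-0.18) and Ccng1 (0.14) with no batch term, Trp53 (-0.12) and Ccng1 (0.58) with linked libraries, and Trp53 (-0.12) and Ccng1 (0.64) with batch 2 shifted. With 1 mouse left out the ranges were -0.82 to 0.43 for Trp53, -0.70 to 0.30 for Mdm2, -0.26 to 0.22 for Ccng1, -0.45 to 0.52 for Sesn2, -1.08 to 0.10 for Trp53inp1 and -0.11 to 1.19 for Phlda3. Between carcinomas and non-TRIM24 tumors they were Bbc3 (-0.26), Sesn2 (-0.004) and Trp53inp1 (-0.25) with TMM, Bbc3 (-0.27), Sesn2 (-0.027) and Trp53inp1 (-0.32) with quantile normalization, and Bbc3 with no batch term (-0.14), linked libraries (-0.35) and batch 2 shifted (-0.39). With 1 mouse left out the ranges were -0.51 to 0.71 for Trp53, -0.025 to 0.82 for Bax, -0.21 to 0.15 for Bbc3, -0.24 to 0.91 for Zmat3, -0.61 to 0.47 for Sesn2, -0.60 to 0.20 for Trp53inp1 and -0.21 to 0.54 for Phlda3.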

Other observations

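In the first libraries of the 6 Trim24COE tumors, carcinomas 273_5 and 3956 had the 2 highest levels for 9 of the 10 genes. The exception was Sesn2, for which carcinoma 89 was second. The same was true of 760 (5.35%) of the 14193 genes that reached 1 TPM in 3 of these tumors. For Trp53inp1 it did not hold with the repeat library of carcinoma 3956 (9.74 TPM), which lay below carcinoma 89 (10.8 TPM). The pair was noticed after the values had been seen, so this is a description with no test. It also held for 4 of 8 further arrest targets (Cdkn1a, Btg2, Gtse1 and Ptpn14), 2 of 9 apoptosis targets (Aen and Ei24) and 4 of 15 repair and metabolism targets (Polk, Ephx1, Ercc5 and Ddit4), for 2 of 7 epithelial markers (Krt18 and Cldn7), and for none of the 15 p53 regulators and none of the 10 proliferation genes. In first libraries, Eda2r was 9.99-fold higher in carcinoma 273_5 and 7.66-fold higher in carcinoma 3956 than in carcinoma 89, and Ccng1 3.54-fold and 6.19-fold higher. Phlda3 differed by 1.25-fold and 1.23-fold. The repeat library of carcinoma 3956 was lower than the first in Eda2r (5.10 against 9.88 TPM) and Ccng1 (131 against 220 TPM). The Eda2r ratios also rest on a low level in carcinoma 89, 1.29 TPM.

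Over the 10 mice of batch 1, the genes whose log2(TPM + 1) was most like that of Trp53, of 14512 genes and leaving out the other members, were Cmtm8 (Pearson r = 0.97), Lrp5 (0.97) and Rbm4b (0.95). Those most like Mdm2 were Vezt (0.98), Plpp2 (0.97) and Gm3325 (0.95). Among the members themselves, the values nearest to Trp53 were those of Sesn2 (0.84) and Trp53inp1 (0.84), and Phlda3 was at -0.06. The points share the division into tumors and glands. They also pool the tumor classes, which did not overlap in Trp53, and the pairs of glands, which differed in it. These r values therefore do not separate a relation between genes from differences between groups, and no test was made.

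Control gland 417_3 had 4.75 times the Trp53inp1, 4.12 times the Eda2r and 3.13 times the Trp53 of gland 133, while for Phlda3 the ratio was 0.23 and for Bbc3 0.47. Bax (1.12) and Zmat3 (1.19) were close to equal in these glands.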
